A study of Homo sapiens with 30 samples.

Results

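The 8 genes described here mark the boundary between midbrain and hindbrain: the transcription factor genes PAX2, PAX5, PAX8, EN1, EN2 and LMX1B, and the ligand genes FGF8 and FGF17. They were named as a list, and open chromatin was read in a window around each, the GRCh38 gene body with 50 kb on each side, in 10 peak lists. All 8 were among the 19211 of 20037 protein-coding genes whose windows held at least 5 merged regions, and 380 of 493444 regions merged over the lists lay in their windows. OmniATAC-seq, in which the Tn5 transposase cuts accessible DNA, was run on nuclei of H1, an established human embryonic stem cell line of wild-type genotype.

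At this boundary lies the isthmic organizer, a narrow signalling centre of the neural tube that patterns the midbrain in front of it and the cerebellum behind it. PAX2 is among the earliest genes of this domain, LMX1B acts upstream of the organizer's signals, and EN1 and EN2 carry its effect into the adjoining tissue. FGF8 is the main secreted signal of the organizer, and FGF17 is a related ligand made in an overlapping territory.

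The groups were undifferentiated cells (hPSC, day 0), definitive ectoderm (DE, day 1), anterior and posterior neural ectoderm (aNE and pNE, both day 2) and 6 day 4 groups. DE cells had been given A8301, trametinib, C59 and LDN193189 in the chemically defined medium CDM2, which inhibit TGF-beta receptors, MEK, Wnt secretion and BMP receptors in that order. A8301, LDN193189 and thiazovivin were then common to both day 2 media, with C59 added for aNE, and with TTNPB, a retinoid, at 50 nM, FGF2 at 20 ng/mL and XAV939, an inhibitor of Wnt signalling, at 1 µM added for pNE. From each of them cells went on in telencephalon, midbrain or hindbrain medium to day 4, and the resulting groups are written aNE_T, aNE_M and aNE_H, or pNE_T, pNE_M and pNE_H. The forebrain medium held XAV939, LDN193189 and FGF2 on day 3, while the make-up of the midbrain and hindbrain media is not given in the sources used here. Cultures that ran beyond day 2 were seeded at 75000 cells/cm2 on the anterior route and at 150000 on the posterior route, per the labels, so density and origin cannot be told apart on day 4.

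The labels count 3 biological replicates in each group, 30 libraries in all, but the deposited values were 1 peak list per group. No library has a value of its own, so no spread between replicates could be computed, no test was run, and every difference between 2 lists lacks a replicate check. The lists held 167792 (aNE) to 313095 (pNE_H) peaks on chromosomes 1 to 22, X and Y, over 75.5 to 129 Mb. Since that alone moves every count, lists are compared by the bases of a window under peaks per Mb of bases under peaks in the whole list, called scaled coverage below, and unscaled bases are given beside it. Peaks of the 10 lists that overlap by at least 1 bp were joined into merged regions, and a list is called open at a region where it has a peak there. In bulk libraries such as these, a site open in few cells and a site weakly open in many cannot be told apart. Of the marker genes, POU5F1, which keeps cells pluripotent, had 5699 covered bases in its window in hPSC and 1805 to 3550 in the day 4 lists. The other pluripotency markers fell less evenly. NANOG had 7131 in hPSC and 2344 to 6226 on day 4, and DPPA4 had 6808 and 4000 to 6938, highest in pNE_H. HOXB1, a hindbrain gene, had 7484 to 7859 in the aNE-derived and 12086 to 15432 in the pNE-derived lists. In hPSC it already had 10683, above 8897 in aNE and 9815 in pNE. None of the 22 marker genes was at 0 in any list, those of mesendoderm, neural crest and surface ectoderm included, so a peak near a gene does not by itself show which cells were present.

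The promoters of the members differed in whether they held a peak at all. RefSeq promoters of the GRCh38.p14 table, which run from 250 bases before a start to 50 after it, were matched for 5 of the 8 members and gave 6 promoters (PAX2 has 2). The second PAX2 promoter and those of PAX5 and EN2 overlapped a peak in all 10 lists, as did 53.2% of all 35116 promoters. The first PAX2 promoter, about 10 kb before the second, overlapped a peak in no list, as did 30.7% of all. PAX8 had a promoter peak in 9 lists and none in pNE_T, although the merged region at its start, chr2:113276779-113279239, still had 1654 bases under peaks in pNE_T against 1894 to 2232 elsewhere. LMX1B had a promoter peak in aNE alone, 125 bases wide, and 3.84% of all promoters had a peak in 1 list. The 4 promoters below are those that show this range, with the closed and the open start of PAX2 first. Capitals mark the E-box CACCTG, the letters read by ZEB and other factors.
PAX2 promoter 1, chr10:100735146-100735445, plus strand: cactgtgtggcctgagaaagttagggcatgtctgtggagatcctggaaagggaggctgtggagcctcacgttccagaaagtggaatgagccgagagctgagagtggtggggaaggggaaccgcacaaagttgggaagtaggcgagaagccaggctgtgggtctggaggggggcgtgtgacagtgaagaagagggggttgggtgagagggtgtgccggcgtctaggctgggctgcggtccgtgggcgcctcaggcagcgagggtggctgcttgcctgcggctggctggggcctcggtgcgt
PAX2 promoter 2, chr10:100745332-100745631, plus strand: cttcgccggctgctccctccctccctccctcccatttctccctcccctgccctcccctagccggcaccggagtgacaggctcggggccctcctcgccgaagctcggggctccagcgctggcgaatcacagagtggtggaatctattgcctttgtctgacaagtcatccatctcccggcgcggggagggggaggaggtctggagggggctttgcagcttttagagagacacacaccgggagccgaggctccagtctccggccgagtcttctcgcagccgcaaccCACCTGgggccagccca
PAX8 promoter 1, chr2:113278872-113279171, minus strand: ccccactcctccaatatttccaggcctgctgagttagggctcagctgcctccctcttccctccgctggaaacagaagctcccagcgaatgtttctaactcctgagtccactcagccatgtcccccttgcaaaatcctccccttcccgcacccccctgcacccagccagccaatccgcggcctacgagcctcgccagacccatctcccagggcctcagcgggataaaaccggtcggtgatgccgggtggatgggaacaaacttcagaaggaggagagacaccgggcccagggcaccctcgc
LMX1B promoter 1, chr9:126613678-126613977, plus strand: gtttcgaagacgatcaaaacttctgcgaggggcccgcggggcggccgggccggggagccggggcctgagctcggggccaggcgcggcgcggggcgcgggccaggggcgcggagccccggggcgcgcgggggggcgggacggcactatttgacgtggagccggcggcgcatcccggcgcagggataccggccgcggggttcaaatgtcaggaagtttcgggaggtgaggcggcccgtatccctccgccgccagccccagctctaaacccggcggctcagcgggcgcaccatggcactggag

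All 6 promoters were rich in G and C, from 62.0% in PAX8 to 78.0% in EN2, beside a median of 58.7% over all promoters. Of 7 motifs searched on both strands, CACCTG was found once, at bases 284 to 289 of the second PAX2 promoter, 33 bases past the start site. It is found in 20.6% of all promoters. No match to TAATTA (homeodomain proteins such as EN and LMX1B, in 4.84% of all promoters), TAATCC (OTX, 6.36%), GCGTGAC (a core of the PAX2/5/8 site, 2.52%), ATCAAAG (TCF/LEF, 2.62%), AGGTCA (a retinoic acid receptor half-site, 13.8%) or ATGCAAAT (the POU octamer, 1.77%) was present in these windows. CACCTG is part of none of the others. A match or its absence says only which letters the 300 bases hold.

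PAX2 encodes a paired-domain factor that switches on organizer genes early. Its window around chr10:100735396-100829944 contained 69 merged regions, 40 of them in the gene and 29 between genes, and no other protein-coding gene. The PAX2 window held 39 peaks over 14953 bases in hPSC, 39 over 14732 in DE, 31 over 15384 in aNE and 40 over 16835 in pNE. On day 4 it held 36 peaks over 18470 bases in aNE_T, 43 over 17362 in aNE_M and 46 over 17360 in aNE_H, against 35 over 17873 in pNE_T, 38 over 15325 in pNE_M and 50 over 23752 in pNE_H. The lowest count was in aNE and the highest in pNE_H, the shortest and the longest list. The widest region, chr10:100826773-100829469 near the gene's distal end, was open in all 10 lists with 1322 (DE) to 2547 (aNE_T) bases. Apart from such constant regions, PAX2 held 12 regions open in pNE and not aNE, against 3 open in aNE and not pNE.

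The PAX2 regions open in pNE and not aNE differed among themselves on day 4. The region chr10:100775341-100776287, inside the gene, had no peak in hPSC, DE or aNE. It had 292 bases in pNE, 260, 318 and 312 in aNE_T, aNE_M and aNE_H, and 752, 413 and 947 in pNE_T, pNE_M and pNE_H. It was thus open in both origins on day 4 and wider in each pNE-derived list than in any aNE-derived list. The widest of the 12, chr10:100712791-100713866, about 22 kb before the gene, lacked a peak in aNE, aNE_T and pNE_M. It had 294, 299 and 410 bases in hPSC, DE and pNE. On day 4 it had 297 and 494 in aNE_M and aNE_H, and 781 and 480 in pNE_T and pNE_H. A narrow one, chr10:100826031-100826397, named after its values were seen, was open in 3 lists only, pNE with 242 bases, aNE_M with 188 and aNE_H with 341.

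PAX5, a close relative of PAX2 that also acts at the boundary and in B cells, spans the longest window, around chr9:36833269-37034268, with 92 regions. Of these 68 lay in the gene, and no other protein-coding gene is in the window. The PAX5 window held 54 peaks over 22957 bases in hPSC, 62 over 22729 in DE, 41 over 19111 in aNE and 48 over 21082 in pNE. The day 4 lists had 48 peaks over 24657 bases in aNE_T, 49 over 24279 in aNE_M and 48 over 20514 in aNE_H, against 57 over 24752 in pNE_T, 47 over 18691 in pNE_M and 63 over 29669 in pNE_H. DE and pNE_H had the most peaks and aNE the fewest. Up to 1239 bases wide, the intragenic region chr9:36961035-36962273 differed by origin: it had no peak in any aNE-derived list and 951, 872 and 1239 bases in pNE_T, pNE_M and pNE_H. It had none in aNE or pNE either, and 136 bases in DE. A second region with peaks in all pNE-derived and no aNE-derived lists, chr9:36867521-36868457, had 195 bases in pNE and 937, 234 and 459 in pNE_T, pNE_M and pNE_H.

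Other PAX5 regions went the opposite way. Just upstream of the gene, chr9:37040410-37041231 was open in every list up to day 2, with 192 (hPSC) to 767 (pNE) bases. It kept 533, 808 and 782 bases in aNE_T, aNE_M and aNE_H and had none in any pNE-derived list. The intragenic region chr9:36970141-36970481 had 341 bases in pNE and 127 to 312 in the aNE-derived lists, and none in the pNE-derived lists. Being open in pNE and then only in the descendants of aNE, it did not follow the line of cells. The region at the PAX5 start, chr9:37034197-37035891, was open in all lists with 1140 (DE) to 1684 (aNE_H) bases.

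PAX8, the third gene of this PAX subfamily and also a thyroid and kidney factor, had 51 regions around chr2:113215997-113278921, 21 in the gene. PSD4 is the other protein-coding gene in its window. The PAX8 window held 30 peaks over 12298 bases in hPSC, 31 over 12063 in DE, 19 over 11424 in aNE and 25 over 14295 in pNE. On day 4 there were 27 peaks over 13774 bases in aNE_T, 32 over 15161 in aNE_M and 30 over 15028 in aNE_H, against 25 over 15601 in pNE_T, 23 over 11368 in pNE_M and 31 over 17884 in pNE_H. The lowest of the 10 values in covered bases was that of pNE_M and the highest that of pNE_H. In the PAX8 window 6 regions were open in pNE but closed in aNE, and none was open in aNE but closed in pNE. The widest of the 6, chr2:113212116-113213190, about 3 kb past the gene's low-coordinate end, had 702 bases in pNE, 196, 1014 and 891 in aNE_T, aNE_M and aNE_H, and 0, 275 and 705 in pNE_T, pNE_M and pNE_H. In both origins the telencephalon list had the least there.

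EN1, a homeobox gene needed for the midbrain and cerebellum, is short, and 25 of the 34 regions around chr2:118842171-118847648 lay between genes. The EN1 window held 18 peaks over 8550 bases in hPSC, 21 over 8261 in DE, 19 over 8486 in aNE and 19 over 8553 in pNE. The later lists had 17 peaks over 8117 bases in aNE_T, 19 over 8864 in aNE_M and 20 over 9080 in aNE_H, against 16 over 6213 in pNE_T, 17 over 6770 in pNE_M and 22 over 9722 in pNE_H. Peak numbers hardly moved, from 16 to 22, while pNE_T and pNE_M had the fewest covered bases. The region at its upper end, chr2:118847658-118848748, was open in all lists but unequal in width. It had 562, 487, 569 and 689 bases in hPSC, DE, aNE and pNE, 413, 491 and 998 in aNE_T, aNE_M and aNE_H, and 279, 422 and 397 in pNE_T, pNE_M and pNE_H.

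About 8 kb beyond that end, chr2:118854624-118856204 also had peaks in all lists. It had 1055, 1003, 1031 and 611 bases in hPSC, DE, aNE and pNE, 622, 938 and 1244 in aNE_T, aNE_M and aNE_H, and 511, 524 and 509 in pNE_T, pNE_M and pNE_H. Every aNE-derived list was above every pNE-derived one at this region, which was picked after its values were seen. How many of all merged regions have that order was not counted. At the widest EN1 region, chr2:118834375-118836550, the origins overlapped. It had 1863, 1762 and 1205 bases in aNE_T, aNE_M and aNE_H, and 1459, 1679 and 2038 in pNE_T, pNE_M and pNE_H. The region chr2:118846584-118847334, inside EN1, had no peak in hPSC, DE, pNE or pNE_H and was widest in aNE_M, at 628 bases.

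EN2, the second engrailed gene, had 28 regions around chr7:155458129-155464831. CNPY1, an FGF signalling gene, shares the window. The EN2 window held 25 peaks over 11285 bases in hPSC, 21 over 9678 in DE, 16 over 9614 in aNE and 18 over 10789 in pNE. Among the day 4 lists there were 18 peaks over 10171 bases in aNE_T, 16 over 11032 in aNE_M and 19 over 11297 in aNE_H, against 18 over 10212 in pNE_T, 15 over 8909 in pNE_M and 17 over 12317 in pNE_H. In hPSC there were 25 peaks and in the later lists 15 to 21. Of its 28 regions 12 were open in all 10 lists and 8 only in hPSC or DE. The region over the EN2 promoter, chr7:155457285-155458228, had 445 (pNE_T) to 835 bases. Open in pNE but closed in aNE were 3 regions, and none showed the reverse. One of the 3, chr7:155471468-155471985, about 7 kb past the gene, was open in 3 lists, with 124 bases in pNE, 159 in aNE_M and 518 in aNE_H.

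LMX1B, a LIM-homeobox gene that sustains organizer signals and later marks dopaminergic and serotonergic neurons, had 58 regions around chr9:126613928-126701032, 35 in the gene. The LMX1B window held 39 peaks over 17915 bases in hPSC, 38 over 20471 in DE, 34 over 18167 in aNE and 36 over 17009 in pNE. On day 4 it held 40 peaks over 20224 bases in aNE_T, 43 over 18309 in aNE_M and 40 over 18729 in aNE_H, against 38 over 17577 in pNE_T, 34 over 15946 in pNE_M and 43 over 21197 in pNE_H. Unscaled, pNE_H was highest and pNE_M lowest. The widest region, the intragenic chr9:126650473-126653113, was open in all lists with 849 (aNE_M) to 1740 (DE) bases. The promoter itself held no peak in 9 lists, while the region about 2 kb before it, chr9:126610733-126612694, was open in all 10 with 1037 (pNE_M) to 1531 (aNE) bases.

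Inside LMX1B, chr9:126671338-126672098 differed by day. It had no peak in hPSC, DE or aNE, 455 bases in pNE, 424, 645 and 520 in aNE_T, aNE_M and aNE_H, and 485, 700 and 758 in pNE_T, pNE_M and pNE_H. As at the PAX2 region chr10:100775341-100776287, it was open in pNE on day 2 and in all lists on day 4. Of the other LMX1B regions 6 were open in aNE and not pNE. The widest of them, chr9:126623651-126624346, had 196, 560 and 165 bases in hPSC, DE and aNE and no peak in pNE, aNE_M or aNE_H.

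FGF8, the organizer's main ligand, had 25 regions around chr10:101770109-101780369, of which 5 touched the gene and 18 another annotated gene. NPM3, OGA and KCNIP2 lie in the window, and its widest regions were at KCNIP2 and OGA. The FGF8 window held 14 peaks over 7689 bases in hPSC, 26 over 8935 in DE, 15 over 8250 in aNE and 17 over 8537 in pNE. The day 4 lists had 17 peaks over 10487 bases in aNE_T, 15 over 8658 in aNE_M and 18 over 8353 in aNE_H, against 21 over 8834 in pNE_T, 21 over 7981 in pNE_M and 17 over 10838 in pNE_H. DE had the most peaks and hPSC the fewest. About 2.5 kb past the gene's low-coordinate end, chr10:101767321-101767934 had no peak in any aNE-derived list, and 388, 611 and 579 bases in pNE_T, pNE_M and pNE_H. It was also closed in hPSC, aNE and pNE and had 210 bases in DE.

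Within the FGF8 body, chr10:101779096-101780210 was open in all lists. It had 1047, 792, 1097 and 732 bases in hPSC, DE, aNE and pNE, 606, 457 and 407 in aNE_T, aNE_M and aNE_H, and 464, 390 and 809 in pNE_T, pNE_M and pNE_H. Except in pNE_H, peaks there were narrower in the day 4 lists than in every earlier list. That region too was chosen with its values in view.

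FGF17, the second ligand, had 23 regions around chr8:22039672-22048809, 3 of which touched the gene. XPO7, NPM2, DMTN and FHIP2B share the window, and 16 regions touched another gene. The FGF17 window held 21 peaks over 12048 bases in hPSC, 21 over 13568 in DE, 15 over 8772 in aNE and 17 over 9903 in pNE. On day 4 there were 17 peaks over 10496 bases in aNE_T, 18 over 10639 in aNE_M and 14 over 10161 in aNE_H, against 12 over 8072 in pNE_T, 14 over 8912 in pNE_M and 16 over 10179 in pNE_H. hPSC and DE were the highest in peak number and in covered bases. The widest region within the gene, chr8:22043863-22045086, had 478, 549, 0 and 455 bases in hPSC, DE, aNE and pNE, 171, 826 and 895 in aNE_T, aNE_M and aNE_H, and 0, 904 and 449 in pNE_T, pNE_M and pNE_H. In both origins it was open in midbrain and hindbrain medium and least covered in telencephalon medium. In DMTN, chr8:22068845-22070438 had 253, 129 and 186 bases in the aNE-derived lists and none in the pNE-derived lists, against 934 in hPSC and 1594 in DE.

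**Figure D1:**
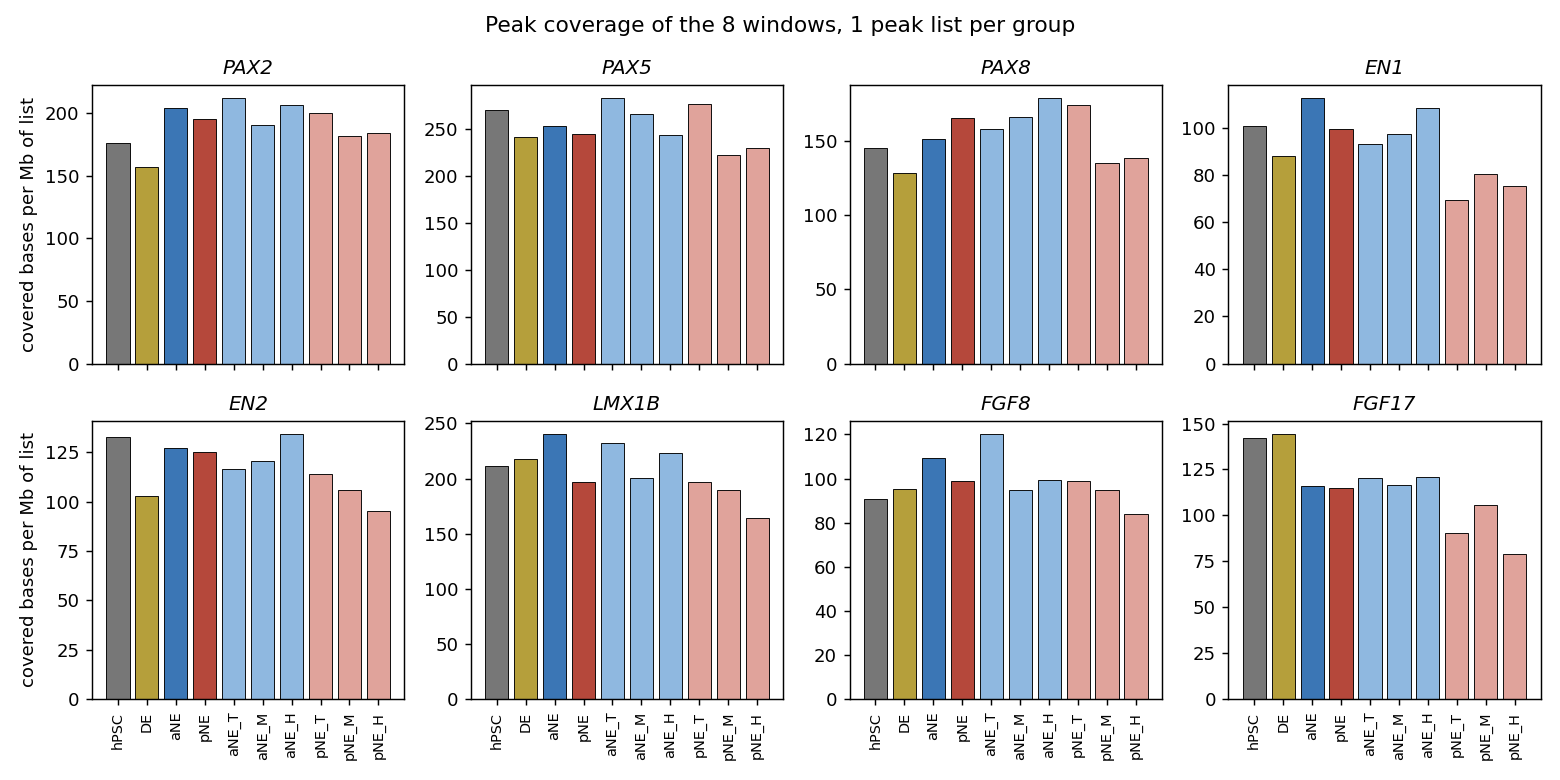
Scaled coverage of each window (covered bases per Mb of bases under peaks in the list, vertical axis) in the 10 lists (horizontal axis), 1 bar per list and no error bars since each group has 1 list. PAX5 and LMX1B have the highest values (the vertical axes differ between panels), FGF17 is highest in hPSC and DE, and the pNE-derived bars of EN1 and FGF17 are the lowest of their panels.

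Along the day path, scaled coverage differed by less than 1.5-fold at every member. A gene was called where 2 lists differed by at least 1.5-fold, and none of the 8 members was called on scaled values in any of the 10 comparisons of 2 lists, nor were 18 other genes of the organizer and the FGF pathway, read the same way. The share of all 19190 to 19210 tested genes called was low as well: 3.07% for DE against hPSC, 4.00% for aNE against DE, 6.58% for pNE against DE and 3.97% for pNE against aNE. With a background of this size, 0 of 8 says little about the members as a group. From hPSC to DE the members' ratios ran from 0.774 (EN2) to 1.05 (FGF8), with a median of 0.892 against 0.943 over all genes. From DE to aNE they ran from 0.805 (FGF17) to 1.30 (PAX2), median 1.16 against 1.05. On scaled values 7 members were higher in aNE and FGF17 was lower. Among all genes 63.1% were higher in aNE scaled and 10.3% as deposited. In bases as deposited only PAX2 (1.04) and EN1 (1.03) were above 1, and 6 members lay below it, FGF17 lowest at 0.647, which is past 1.5-fold on that scale. The median over the members was then 0.935 and that over all genes 0.846, so the direction for 5 of the 8 depended on the scaling.

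From DE to pNE the range was 0.795 (FGF17) to 1.29 (PAX8), median 1.08 against 0.972 over all genes. These comparisons share the DE list with the preceding one, so that FGF17 was low in both cannot count as 2 observations. Directly, pNE against aNE gave ratios from 0.820 (LMX1B) to 1.10 (PAX8), median 0.962 against 0.922. On scaled values PAX8 alone was higher in pNE. In bases as deposited 7 of the 8 were higher there, up to 1.25 (PAX8), and LMX1B was lower (0.936), so LMX1B and PAX8 were the 2 members whose direction was the same on both scales. Of the 18 pathway genes, 4 were higher and 14 lower in pNE on scaled values and 12 higher and 6 lower in deposited bases. Among all genes 28.8% were higher in pNE scaled and 66.4% as deposited. Scaled ratios of the pathway genes ran from OTX2, a forebrain and midbrain factor, at 0.756 to TLE4, a co-repressor, at 1.10.

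The same reading was made from each day 2 population to its day 4 groups. In the aNE line, aNE_T against aNE called 2.94% of all genes, aNE_M 5.32% and aNE_H 7.46%. Member medians were 1.04, 0.941 and 0.989, beside 0.958, 0.917 and 0.919 over all genes. In the pNE line, pNE_T against pNE called 5.85% of all genes, pNE_M 5.90% and pNE_H 7.65%, and member medians were 0.997, 0.915 and 0.833, beside 0.959, 0.949 and 0.858. The members nearest to the 1.5-fold line were EN1 in pNE_T, at 0.700 of its pNE value, and FGF17 in pNE_H, at 0.686. EN1 in pNE_T was lower in deposited bases too (0.726). In pNE_M all 8 members were below their pNE values on both scales. Of all genes, 35.4% were above them scaled and 29.7% as deposited. The pNE_H ratios turned with the scale: all 8 members were below 1 scaled and above 1 as deposited, from 1.03 (FGF17) to 1.41 (PAX2). Of all genes, 23.3% were above 1 scaled and 95.2% as deposited.

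**Figure D2:**
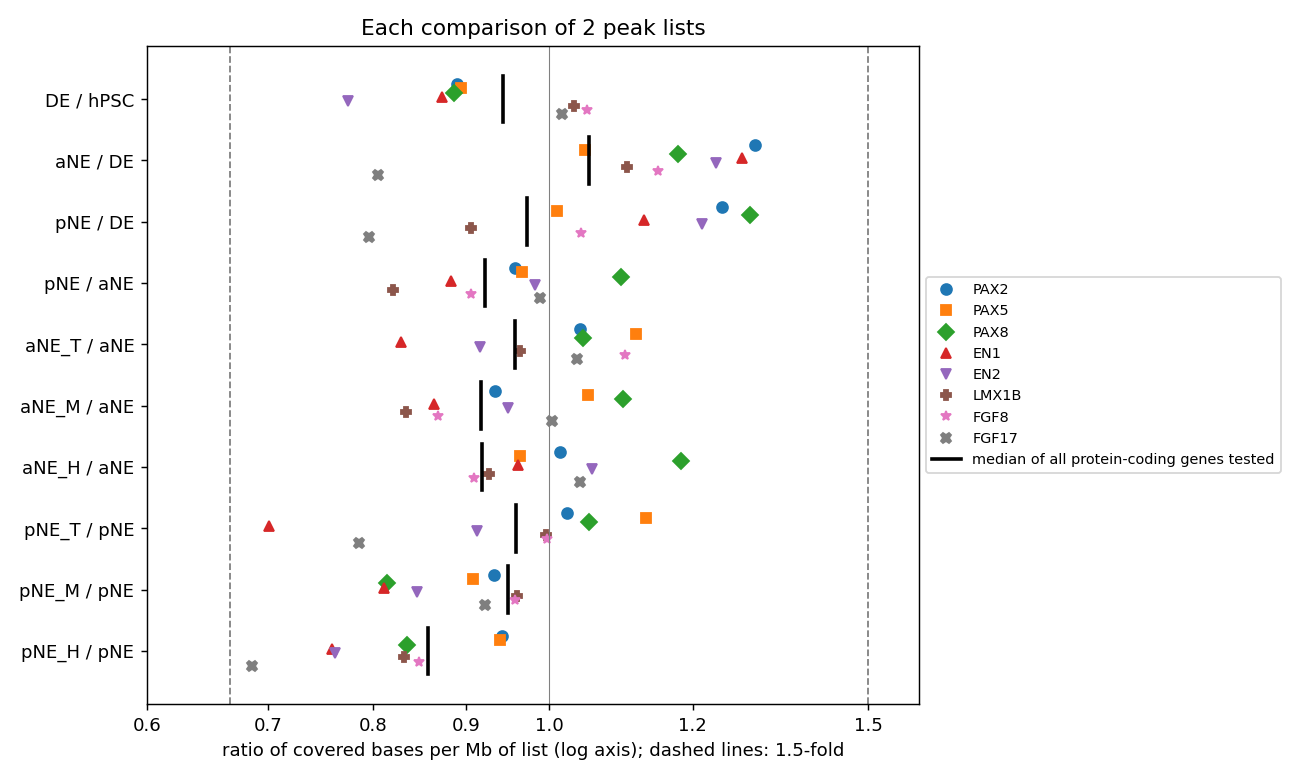
Ratio of scaled coverage between the lists named on the vertical axis (second-named list as the denominator), on a logarithmic horizontal axis, with 1 symbol per member, a black bar at the median over all tested protein-coding genes and dashed lines at 1.5-fold in either direction. All member symbols lie between the dashed lines, with FGF17 in pNE_H / pNE (0.686) and EN1 in pNE_T / pNE (0.700) the lowest.

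The day 4 lists cross origin with medium, so that cells with an aNE or a pNE past could be compared over 3 media. EN1 scaled coverage was 93.1, 97.1 and 108 in the aNE-derived telencephalon, midbrain and hindbrain lists, against 69.5, 80.4 and 75.3 in the pNE-derived lists in the same order. All 3 aNE-derived values lay above all 3 pNE-derived ones, with means of 99.4 ± 7.73 and 75.0 ± 5.48 (SD over 3 lists, which differ in medium and are not replicates), a ratio of 0.755. For FGF17 the values were 120, 117 and 121 in the aNE-derived telencephalon, midbrain and hindbrain lists, against 90.2, 106 and 78.8 in the pNE-derived lists in the same order. Here too the groups did not overlap, and the ratio of means was 0.768.

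EN2 had 117, 121 and 134 in the aNE-derived telencephalon, midbrain and hindbrain lists, against 114, 106 and 95.3 in the pNE-derived lists in the same order, a ratio of 0.848 without overlap. LMX1B had 232, 201 and 223 in the aNE-derived telencephalon, midbrain and hindbrain lists, against 197, 189 and 164 in the pNE-derived lists in the same order, a ratio of 0.839 without overlap. In PAX2, PAX5, PAX8 and FGF8 the origins overlapped, at ratios of 0.929, 0.918, 0.890 and 0.882. The count of 4 of 8 members with all aNE-derived lists above all pNE-derived lists stands beside 27.7% of all genes. No member had the reverse order, which 5.77% of all genes had.

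Without the scaling those calls were gone. In bases as deposited, 0 of 8 members had all aNE-derived lists higher (background 1.25%) and 0 of 8 had all pNE-derived lists higher (background 8.45%). The ratio of EN1 was then 0.871 and that of FGF17 0.868, while the median over all genes moved from 0.906 scaled to 1.03 unscaled, and that over the members from 0.865 to 0.986. On either scale 6 of 8 members lay below the median of all genes. Over the gene bodies alone, where EN1 and EN2 had 1 to 3 peaks per list, the scaled EN1 ratio was 1.18 and the EN2 ratio 1.24, while those of LMX1B and FGF17 were 0.833 and 0.716. For EN1 and EN2 the lower coverage of the pNE-derived lists thus lay in the flanks, and for LMX1B it was also seen within the gene. The FGF17 body held 1 or 2 peaks per list, and there the origins overlapped. Its scaled body values were 4.04, 9.05 and 10.65 in aNE_T, aNE_M and aNE_H, against 2.78, 10.74 and 3.48 in pNE_T, pNE_M and pNE_H. Of the 18 pathway genes, 7 were higher in all aNE-derived lists on the scaled values, beside 27.7% of all genes. They were WNT1, OTX2, GBX2, IL17RD, CNPY1, FGFR3 and SP8, and none of them was so in bases as deposited. CNPY1 lies in the EN2 window, so the 2 are not separate observations. DUSP6, an FGF feedback phosphatase, was higher in all pNE-derived lists on both scales, beside 5.77% of all genes scaled and 8.45% as deposited. In scaled coverage the summed markers of position differed by origin on day 4. The 6 hindbrain markers (GBX2 and 5 HOX genes) summed to 595 to 622 in aNE-derived against 734 to 869 in pNE-derived lists. GBX2 itself went the other way, at 83.2 to 92.8 against 61.6 to 76.1. The hindbrain sum was also 781 in hPSC, 786 in aNE and 755 in pNE, within the pNE-derived range, and 583 in DE. OTX2 had 79.2 to 103 against 63.3 to 74.3 scaled. As deposited its values overlapped, at 7222 to 9020 against 6257 to 8172 bases. The 3 forebrain markers summed in scaled coverage to 310 to 371 against 257 to 304, though SIX3 and LHX2 each overlapped between origins. The 2 neural crest markers summed to 166 to 189 against 148 to 163, and the 2 surface ectoderm markers to 186 to 202 against 208 to 220. Taken singly, SOX10, FOXD3 and TFAP2A each overlapped between origins. Only GATA3 did not, at 71.6 to 83.0 against 92.3 to 100. The part of these markers in the members' values was not tested.

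**Figure D3:**
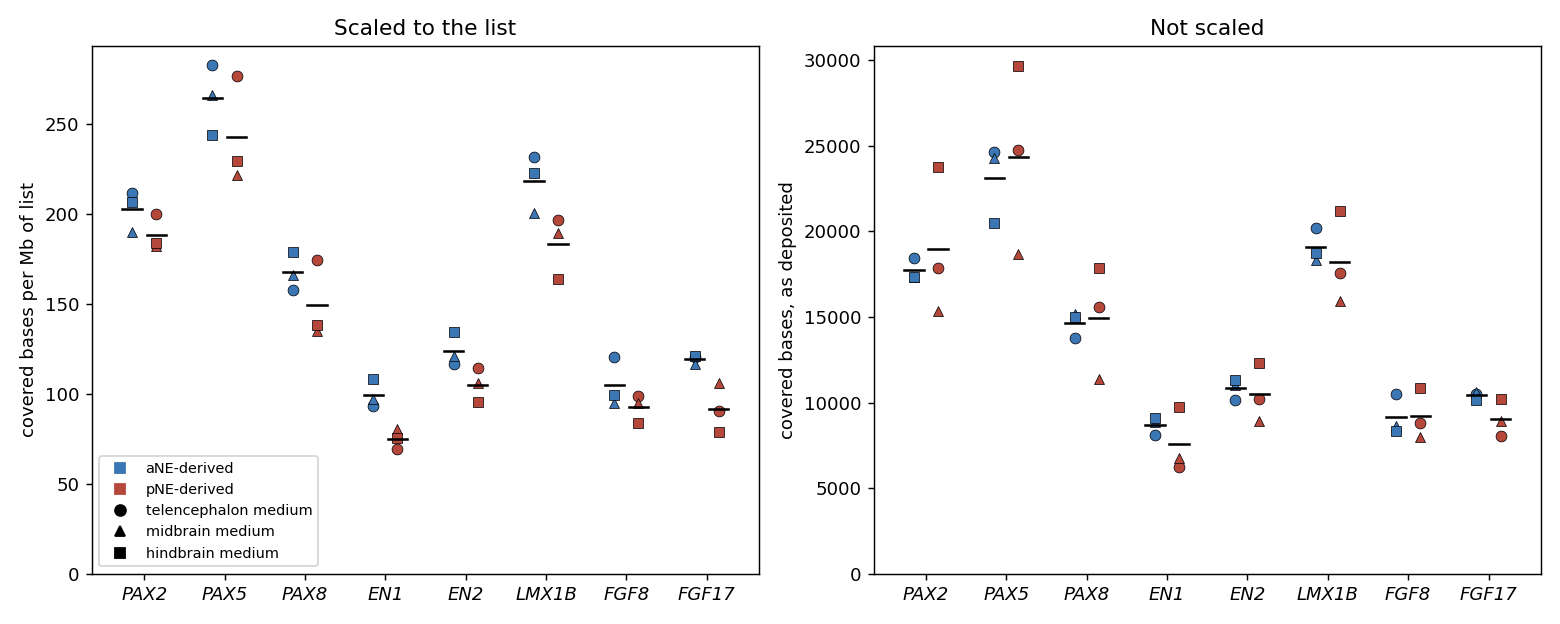
Coverage of each window in the 6 day 4 lists, scaled (left) and in bases as deposited (right), with 1 symbol per list, colour for origin, shape for medium and a bar at the mean of 3 lists. On the left the origins separate for EN1, EN2, LMX1B and FGF17; on the right they overlap for all 8 genes.

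No member had its highest scaled coverage in midbrain medium in both origins. A member was counted as midbrain-high where the midbrain list lay above both other media in both origins. None of 8 was, nor any of the 18 pathway genes, beside 5.66% of all genes. PAX2 was midbrain-low, at 0.909 of the mean of the other media in the aNE-derived and 0.949 in the pNE-derived lists, beside 5.95% of all genes. In bases as deposited the counts were 0 midbrain-high (background 0.396%) and 1 midbrain-low, LMX1B (background 6.80%), so that the one gene counted changed with the scale. FGF17 had the largest midbrain ratio, 1.25 in the pNE-derived lists, and 0.966 in the aNE-derived ones. Medians over the members were 0.964 and 1.02, beside 0.976 and 1.04 over all genes.

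Most coverage at these genes came from regions with a peak in every list. Of the 380 merged regions 107 had a peak in all 10 lists (28.2%, 95% Wilson interval 23.9 to 32.9, which covers the number of regions only, and neighbouring regions are not independent), against 16.5% of all merged regions and 18.5% of those in windows of protein-coding genes. EN2 had the highest share, 12 of 28, and PAX2 the lowest, 14 of 69. These 107 regions held 68.0% (pNE_H) to 82.2% (aNE) of the bases under peaks at the members. Over all regions of the genome the same share was 48.6% (pNE_H) to 71.5% (aNE), so most bases lay in constant regions elsewhere too, except in pNE_H, and the members' share was higher in each of the 10 lists. Where at least 50% of a region had to be under peaks, 37 rather than 107 regions were open in all lists. The 107 regions were wide, with a median of 1030 bp beside 871 bp for all regions open in 10 lists. Regions open in 1 list were fewer, 96 of 380 (25.3%) against 33.5% of all, with a median width of 156 bp. Outside the constant regions the members had 17829 bases under peaks in aNE and 43802 in pNE_H.

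The shifting regions were counted by pattern. From DE to aNE the windows lost 69 regions and gained 14, and from DE to pNE they lost 65 and gained 35. The losses were 31.2% and 29.4% of the regions open in DE, beside 39.1% and 37.6% over all regions, and the gains came to 6.33% and 15.8% of that number, beside 7.24% and 21.1%. Between the day 2 lists, 49 of 380 regions were open in pNE and not aNE (12.9%, against 12.7% of all merged regions) and 24 in aNE and not pNE (6.32%, against 5.54%). Open in hPSC or DE and never later were 47 (12.4% against 12.9%), 14 of them at PAX5, 11 at PAX8 and 8 at EN2. These shares were near those of all regions. Per gene, the regions open in pNE and not aNE against those open in aNE and not pNE numbered 12 and 3 at PAX2, 10 and 6 at PAX5, 6 and 0 at PAX8, 6 and 5 at EN1, 3 and 0 at EN2, 6 and 6 at LMX1B, 2 and 2 at FGF8, and 4 and 2 at FGF17. This excess for pNE was not there at equal list length: with the widest 167792 peaks of each list 29 of 300 regions were open in pNE and not aNE and 30 in aNE and not pNE (10.8% and 10.6% of all regions). The pairs were then 8 and 5 at PAX2, 5 and 8 at PAX5, 5 and 0 at PAX8, 3 and 5 at EN1, 1 and 0 at EN2, 3 and 8 at LMX1B, 1 and 2 at FGF8, and 3 and 2 at FGF17.

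By origin, 3 regions were open in all aNE-derived and no pNE-derived list (0.789% against 0.633%), 2 at PAX5 and 1 in DMTN within the FGF17 window. Another 3 were open in all pNE-derived and no aNE-derived list (0.789% against 2.33%), 2 at PAX5 and 1 beside FGF8. For the second pattern the Wilson interval of the member share was 0.269 to 2.30, which ends just under the share of all regions and holds the 2.08% of regions in windows of protein-coding genes. No region at any member was open in both midbrain lists and closed in the other day 4 lists, a pattern of 0.192% of all regions.

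A further pattern was picked after the values had been seen: open in pNE, aNE_M and aNE_H, closed in aNE and aNE_T. It joins the posterior day 2 list with the aNE-derived lists of the midbrain and hindbrain media. It held 16 regions, 4.21% (Wilson interval 2.61 to 6.73) against 3.14% of all merged regions and 2.83% of those in windows of protein-coding genes. PAX2 had 7, PAX5 had 4, LMX1B had 2, and PAX8, EN2 and FGF17 had 1 each, while EN1 and FGF8 had none. Those at PAX2 lay on both sides of the gene's low-coordinate end, with midpoints from -39.9 kb to 90.8 kb. The longest PAX5 one, chr9:36858746-36859706, had 423 bases in pNE, 928 in aNE_M, 802 in aNE_H and 552 in pNE_M, and no peak in the other 6 lists.

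**Figure D4:**
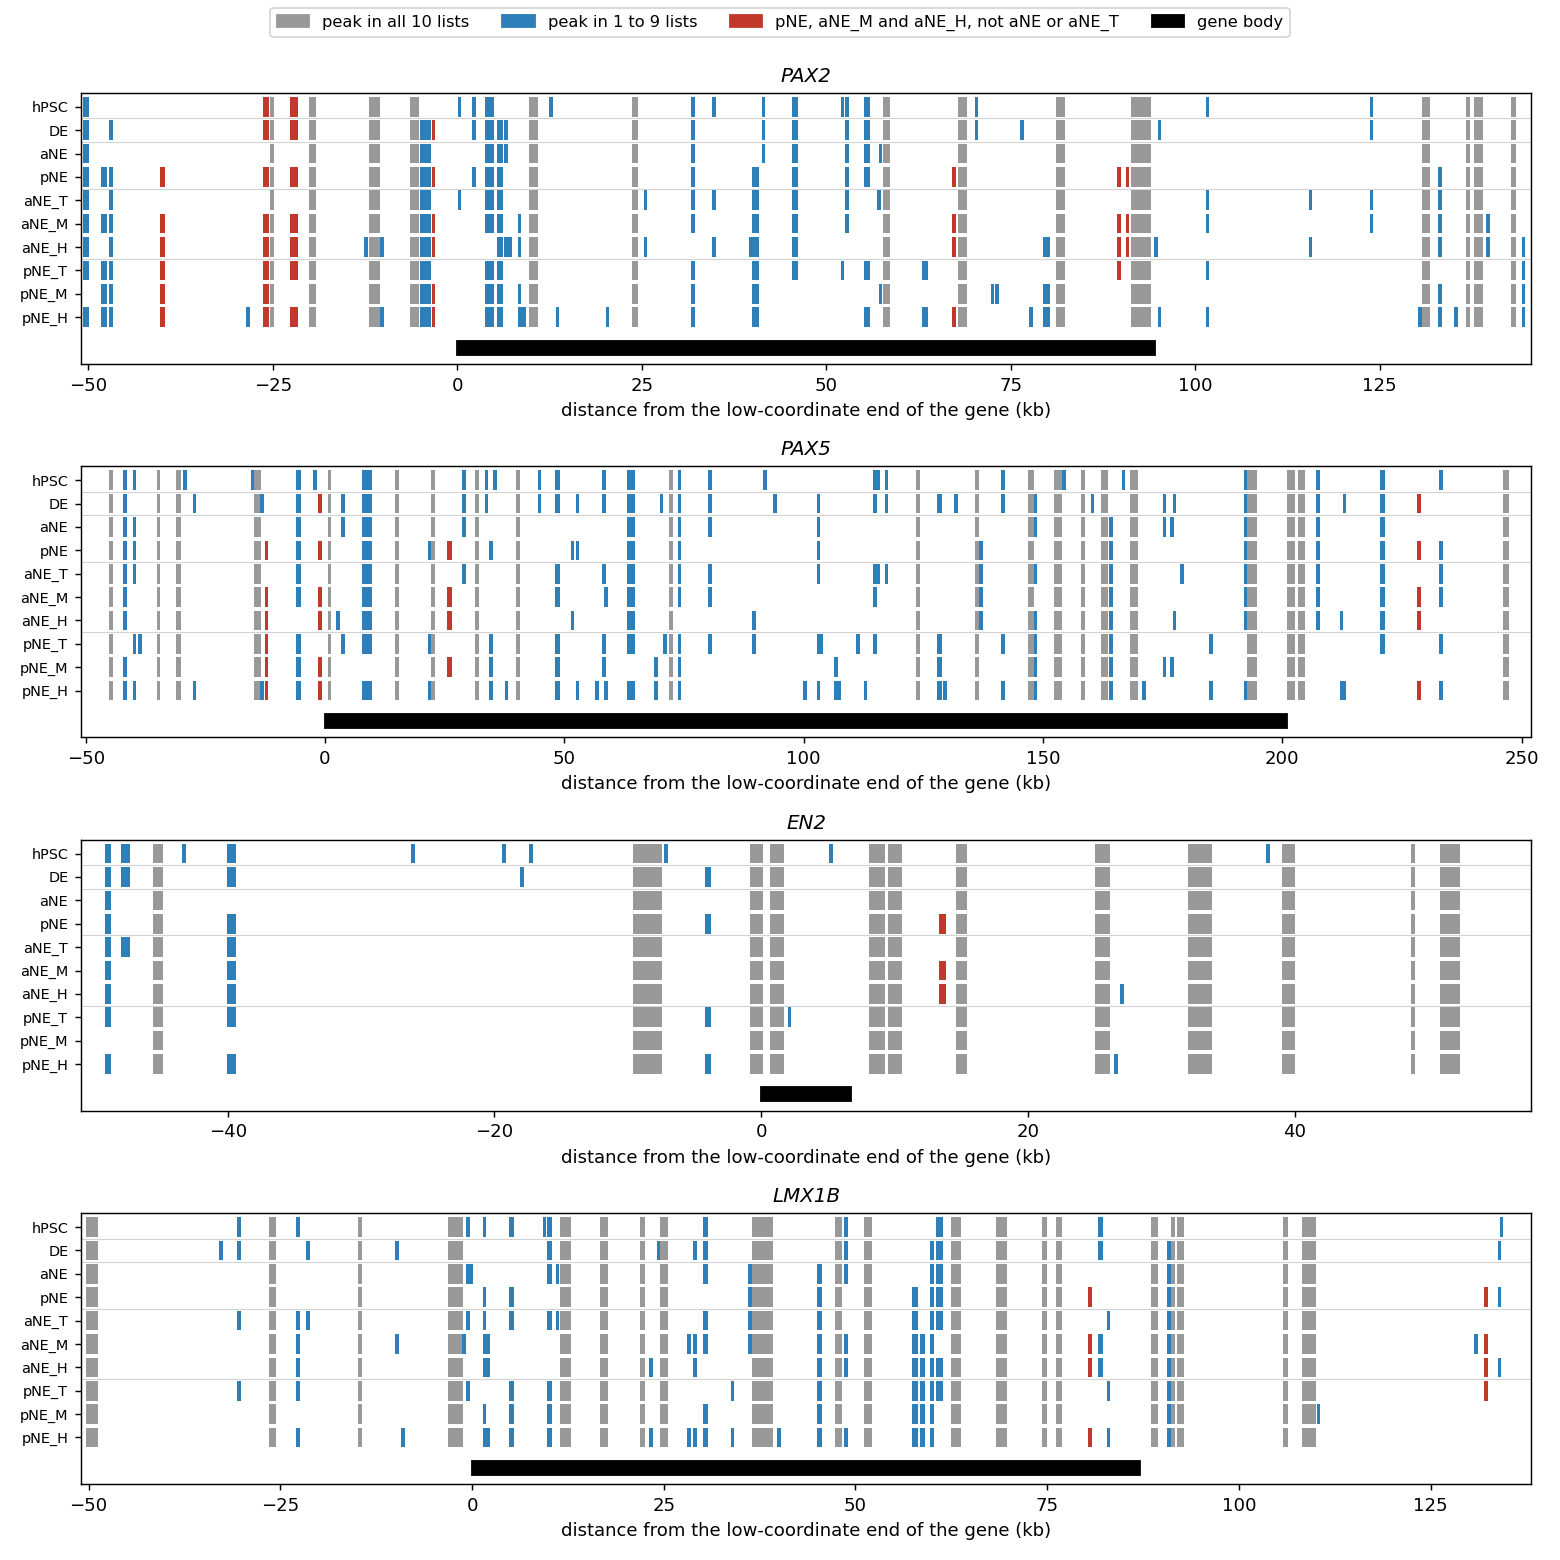
Merged regions of the PAX2, PAX5, EN2 and LMX1B windows, placed by distance from the low-coordinate end of the gene (kb, horizontal axis), with a block in each list (row of the panel) that has a peak in the region; the black bar is the gene body, a block spans the whole merged region, and narrow ones are drawn at a minimum visible width. Grey columns are the 14, 21, 12 and 20 regions with a peak in all 10 lists, and red ones the 7, 4, 1 and 2 that were open in pNE, aNE_M and aNE_H and closed in aNE and aNE_T.

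**Figure D5:**
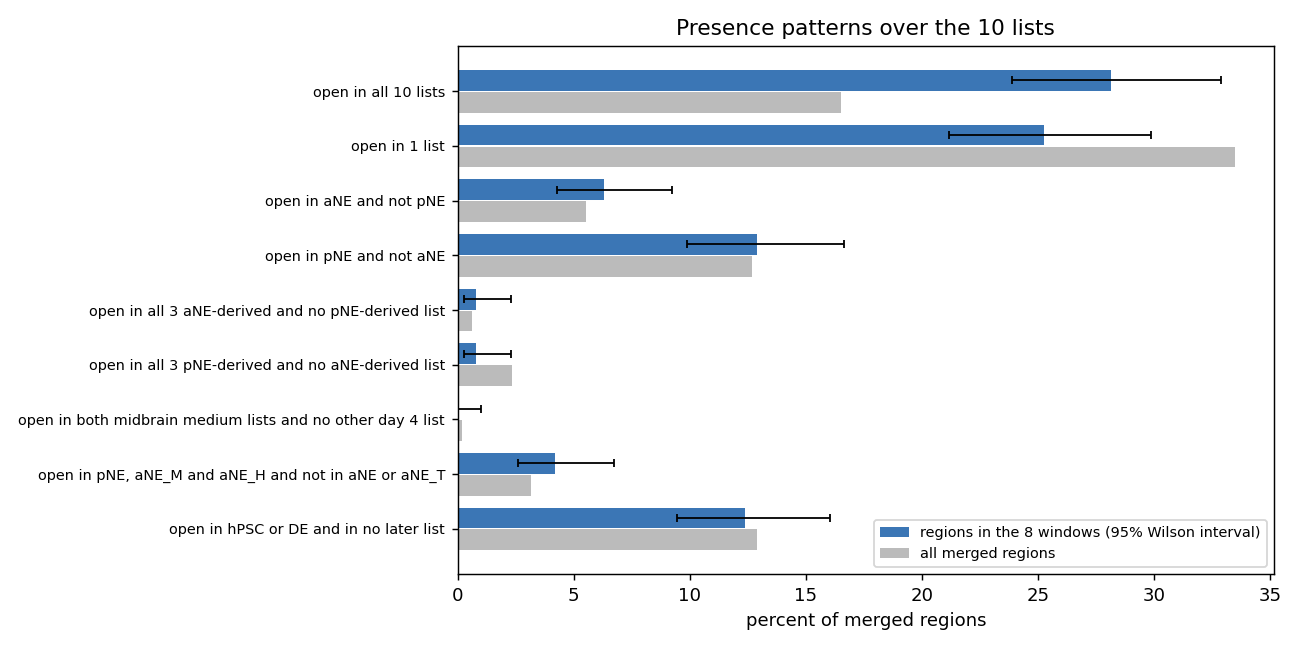
Percent of merged regions (horizontal axis) with each presence pattern, for the 380 regions in the 8 windows (blue, with 95% Wilson intervals) and all 493444 merged regions (grey). Regions open in all 10 lists make up 28.2% at the members and 16.5% of all.

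Over the 10 lists, the coding genes whose scaled coverage was most like the summed coverage of the 8 members, among 18482 genes whose windows touch no member's, were NACC1 (Pearson's r 0.991), AP3D1 and TRMT1 (0.971 each), all on chromosome 19. The 10 points share the total of each list, by which both measures were divided, and the value is given as a description.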

How the data were processed

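OmniATAC-seq peak positions of 10 groups (30 labelled libraries, 3 per group) were analysed. Per the submitters' processing notes, the authors used hg38, FastQC, Bowtie2, MACS2, bedtools, featureCounts, edgeR and deepTools, with no role, order or version recorded; the peak threshold and the way replicates were combined are not given in the sources used here. The deposited files hold peak starts and ends (another kind of value, in base positions) and no score, so read depth is unknown, and a stricter threshold or deeper sequencing in 1 group would change its number of peaks.

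Computed here, with Python 3.11.15, numpy 2.4.6 and pandas 2.3.3 (intervals with scipy 1.17.1, plots with matplotlib 3.10.9), were peaks overlapping each window by at least 1 bp, bases under peaks, scaled coverage, merged regions and presence patterns. Gene positions, symbols and promoters came from RefSeq GRCh38.p14; all 8 members matched. The gene table was used without strand. Counting was tested on simulated lists. Likeness was sought among genes with at least 10 merged regions.

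With 1 list per group there was no replicate test and nothing to adjust. Named were all members, and called pathway genes or those with the extreme ratios. Per member, regions were taken from the widest region, the region at an end of the gene and up to 3 regions per pattern by width. Not all of these are given for each member, so the regions shown are a selection. Regions chosen otherwise are said to be. The members and lists were chosen with earlier results of these data known. Alternatives changed the scaling, the flank (0, 10 or 100 kb), the assignment of peaks to genes, the peaks kept (widest 50%, or the widest 167792), the measure and the lists included. Leaving out pNE_H was added after seeing the data. Sequences under peaks were not analysed here.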

Additional observations from a re-analysis of the deposited data

How the results depend on the processing

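No paired analysis was possible because each group has 1 deposited list and no value per replicate. List length, read depth, which is unknown here, and the calling threshold cannot be told apart, and they limit every comparison of 2 lists. The summed scaled coverage of the 8 members moved outside the counting interval of the peak numbers in 4 cases. Unscaled, aNE over DE was 0.898 against 1.12, pNE-derived over aNE-derived 0.992 against 0.867, and midbrain over the other media in the pNE-derived lists 0.768 against 0.983; with the widest 167792 peaks of each list the last was 0.801. The cause was not tested, beyond the list totals that the scaling divides by.

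The 4 members with all aNE-derived lists above all pNE-derived ones became 0 unscaled, 2 with the widest 167792 peaks, 1 over gene bodies alone and 8 without the telencephalon lists, where fewer lists must be in order. EN1 and EN2 turned to ratios of 1.18 and 1.24 over gene bodies. The genes counted also changed in other settings. EN1 was not among the 5 with flanks of 100 kb, nor LMX1B among the 4 with the widest 50% of peaks. EN2 was not among the 5 by peak number, nor FGF17 among the 3 with peaks assigned to the nearest gene end. Members with midbrain coverage above both other media were 2 in the pNE-derived lists alone. Those with midbrain coverage below, 1 in the main reading, were 0 with flanks of 10 kb or 100 kb or by peak number, 2 over gene bodies, 4 in the aNE-derived and 3 in the pNE-derived lists alone.

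Where a region counted as open only with at least 50% of it under peaks, 107 regions open in all lists became 37, the 3 open in all aNE-derived and no pNE-derived lists 1, the 3 of the opposite kind 5, and the 0 of the midbrain lists 1. With the widest 167792 peaks per list, 49 regions open in pNE and not aNE became 29 and the 24 of the opposite kind 30, which ends the excess for pNE. Without pNE_H, 5 regions instead of 3 were open in all aNE-derived and no pNE-derived list. The pattern of pNE, aNE_M and aNE_H held 11 of 300 regions (3.67% against 2.60% of all) with the widest peaks.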
